A study of Mus musculus with 12 samples.

Results

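The Hox genes are the homeobox genes of the HoxA, HoxB, HoxC and HoxD clusters, and they were read here in colon tumours of mice as a group chosen by gene symbol alone, a Hox letter followed by a paralogue number. Among the 21792 genes measured, 28 met this rule: 10 of HoxA, 9 of HoxB, 1 of HoxC and 8 of HoxD. Total RNA of 12 tumours had been sequenced, 3 libraries for each of 4 genotypes, all on the FvB background and all from mice given the carcinogen azoxymethane. Mice of every genotype, wt included, received 10 mg/kg into the peritoneum each week over 6 weeks, and the tumours were taken in week 16 counted from the start of dosing. The genotypes were double deficient (miR-34a and p53 both missing in intestinal epithelial cells, IEC), p53 deficient (p53 missing in those cells), miR-34a deficient (miR-34a missing in those cells) and wt. The deletions were thus limited to the epithelium, while the RNA came from whole tumours with their stroma. The labels name neither the driver of the deletion, nor the animal behind each library, nor the place of a tumour along the colon.

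Hox genes encode transcription factors that set position along the body axis. Within a cluster they lie in the order in which they are used from front to back, so that low paralogue numbers mark anterior and high numbers posterior levels. In the gut the most posterior members are known from the hindgut, the distal colon and the anorectal region, and Polycomb and trithorax complexes keep clusters off or on in a heritable way. These complexes, the caudal factors Cdx1 and Cdx2 and the TALE partners of Hox proteins were therefore read beside the clusters.

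Values are the scores deposited by the authors, normalized per library and rounded to whole numbers. How they were normalized is not given in the sources used here, so the depth behind each value is unknown. Upper quartiles lay between 1905 and 1982.25 in the 12 libraries. Trp53, the gene of p53, had scores of 401 to 924 in the double deficient and p53 deficient libraries and of 3466 to 5120 in the miR-34a deficient and wt libraries. The miR-34a gene itself was not analysed here. Differences are log2 differences of group means of log2(score + 1) with their SE (n = 3 libraries per genotype), tested with limma over 21322 genes, and a gene passed at a Benjamini-Hochberg adjusted p under 0.05. All 28 Hox genes entered the test.

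Scores were low at the anterior end of HoxA, HoxB and HoxD, and high at the posterior end of HoxB and HoxD. In HoxA they peaked at Hoxa9, with mean scores of 170.5 for Hoxa11 and 825 for Hoxa13. Hoxc13, the only HoxC gene read here, averaged 11.2. A mean score of at least 1000 over the 12 libraries was reached by 9 of the 12 members with paralogue numbers 9 to 13, and by 1 of the 16 members with lower numbers, Hoxa7. Another 4 members averaged 100 to 1000 and 14 averaged under 100, and 3 of the 28 had a score of 0 in some library. Per kilobase of annotated exon, the mean score of Hoxd13 was 351902, followed by Hoxd11 with 61423 and Hoxd12 with 33362. That of Hoxd12 rested largely on p53 deficient 1, without which its mean was 16229, and its median over the libraries was 5618 per kilobase. Hoxd10, Hoxb13 and Hoxa9 came next with 4239, 4214 and 2078 per kilobase. The order of Hoxd10 and Hoxb13 cannot be read from these values, since each varied between libraries by far more than the gap between them. Hoxd9, Hoxa10, Hoxb9, Hoxa7 and Hoxa13 had means of 1106, 870, 829, 465 and 334 per kilobase. Whether the authors had already divided the scores by gene length is not known.

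**Figure D1:**
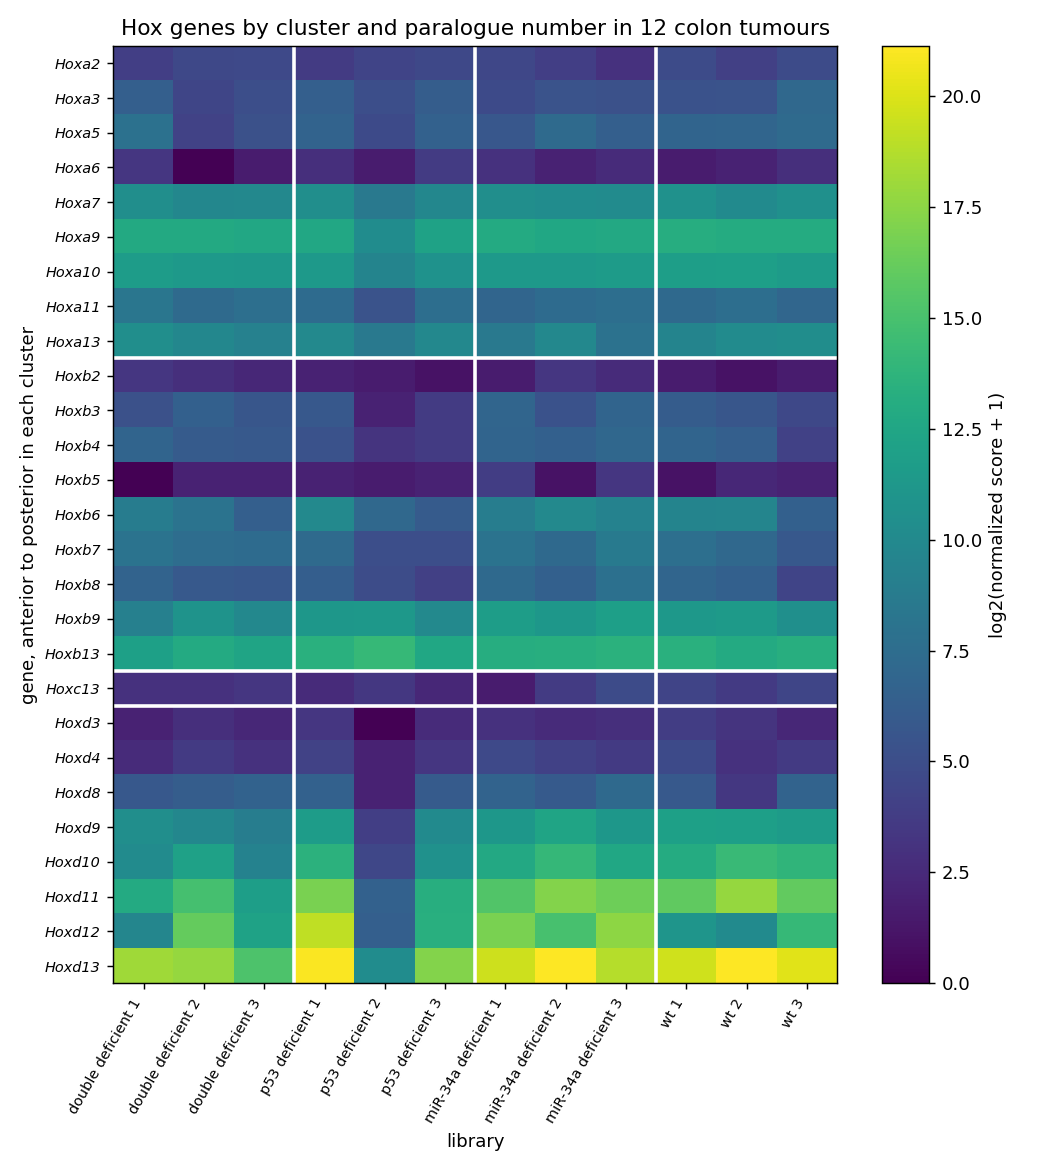
Log2(score + 1) of Hox genes (rows, anterior to posterior within each cluster) in the 12 libraries (columns by genotype). The bright lower rows of HoxD, the steadier Hoxa9, Hoxa10 and Hoxb13 rows and the dark HoxD column of p53 deficient 2 stand out.

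Hox genes also differed between libraries more than most genes did. The median range of a member over the 12 libraries was 3.65 on the log2 scale, against 1.57 over all genes tested. The genes tested were not matched to the members in level, and low scores can widen a range. Hoxa6, Hoxb5 and Hoxd3, with scores of at most 13, ranged over 3.70, 3.81 and 3.81. The high members Hoxa9 and Hoxb13 ranged over 2.89 and 2.21. A range above 4 was seen in 7 of the 28 members and in 6.86% of all genes tested. Without p53 deficient 2, left out after the data were seen, it was seen in 4 members and in 5.52% of all genes, and the medians were 3.25 and 1.45. The library p53 deficient 2 held the lowest value of 15 of the 28 members, among them all 8 HoxD genes, 4 HoxA genes and 3 HoxB genes, while 16.0% of all genes tested were lowest there. Only Hoxb13 had its highest value in that library. In tumour RNA of this kind, fewer cells with a transcript and less of it per cell cannot be told apart.

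Hoxd13, the last gene of HoxD, known from hindgut and digit development (chromosome 2, 74668310 to 74671599, plus strand, GRCm38), gave the highest Hox scores. Its scores were 275338, 229898 and 39309 in double deficient tumours, 2075989, 1203 and 149715 in p53 deficient tumours, 741024, 2272369 and 437212 in miR-34a deficient tumours, and 773877, 2284756 and 1204571 in wt tumours. All double deficient libraries lay below all miR-34a deficient and wt libraries, while the p53 deficient libraries spread from near the top of the wt range to far below every other library. Ranked by score within a library, Hoxd13 stood at 4, 5 and 86 in double deficient tumours, 1, 7040 and 11 in p53 deficient tumours, 2, 1 and 4 in miR-34a deficient tumours, and 2, 1 and 1 in wt tumours. Its part of the summed scores ran from 0.00246% in p53 deficient 2 to 4.49% in wt 2, and by its mean over the 12 libraries it ranked 2 in the whole table. Such parts cannot be read as shares of RNA, since the normalization is not known and single genes can weigh heavily in a sum. In miR-34a deficient 1 the noncoding RNA Xist alone had a score of 53418083, in a sum of 101121673.

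Hoxd11, Hoxd10 and Hoxd9 are Abdominal-B type genes of limb and trunk that lie anterior to Hoxd13 in the cluster (Hoxd11 at 74679557 to 74687016, Hoxd10 at 74691924 to 74695105, Hoxd9 at 74697727 to 74700208). They broadly ran with Hoxd13 between libraries, though not in every library of a genotype. Hoxd11 had scores of 7808, 30250 and 3759 in double deficient, 119091, 94 and 9534 in p53 deficient, 42554, 153337 and 90445 in miR-34a deficient, and 65002, 229916 and 67104 in wt tumours. Hoxd10 had scores of 1165, 4473 and 673 in double deficient, 11869, 22 and 1620 in p53 deficient, 6721, 16998 and 6160 in miR-34a deficient, and 8091, 20072 and 14518 in wt tumours. For both genes p53 deficient 2 was the lowest library by a wide margin, and the double deficient libraries lay below every miR-34a deficient and wt library. Hoxd9 had scores of 1407, 871 and 499 in double deficient, 3217, 14 and 1102 in p53 deficient, 2362, 5303 and 2333 in miR-34a deficient, and 4188, 3890 and 3157 in wt tumours, which repeats that order. Within wt tumours, however, Hoxd9 was highest in wt 1, the wt library lowest in Hoxd13. Hoxd11 was higher in miR-34a deficient 3 than in miR-34a deficient 1, while Hoxd13 was lower. Hoxd9, Hoxa7, Hoxb2, Hoxb3, Hoxb6, Hoxb8 and the non-Hox transcripts of the cluster were picked for their values in each library after these had been seen.

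Across the 12 libraries Hoxd13 ranged over 10.89 log2 units, Hoxd11 over 11.24, Hoxd10 over 9.77 and Hoxd9 over 8.47. The gap between Hoxd13 and Hoxd10 ranged only from 5.68 to 7.88 log2 units over the same libraries, a span of 2.20. The gap to Hoxd11 spanned 2.87 and the gap to Hoxd9 spanned 3.04. Much of the range of each gene came from p53 deficient 2: without it Hoxd13 ranged over 5.86, Hoxd11 over 5.93, Hoxd10 over 4.90 and Hoxd9 over 3.41, while the 3 spans stayed at 2.87 for Hoxd11, 2.20 for Hoxd10 and 3.04 for Hoxd9. For Hoxd9 the gap to Hoxd13 then spanned nearly as much as the gene's own range. All these genes come from the same libraries, so the shared movement is a description of 12 tumours.

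Evx2 and the transcript Gm28309 ran with these genes, while the flanking genes outside the cluster did not. Evx2, the even-skipped homeobox gene beyond Hoxd13 (74652991 to 74659557, minus strand), had scores of 29054, 18741 and 2455 in double deficient, 366731, 351 and 10995 in p53 deficient, 85921, 190474 and 38173 in miR-34a deficient, and 82883, 309878 and 91021 in wt tumours. It ranged over 10.02 log2 units, and its gap to Hoxd13 spanned 2.23 (a range of 7.22 without p53 deficient 2). Gm28309, a processed transcript that overlaps Hoxd11 and Hoxd10 on the same strand (74683446 to 74694194), ranged from 142 in p53 deficient 2 to 340670 in wt 2. Because the counting of overlapping genes is not described, reads may have been split between Gm28309, Hoxd11 and Hoxd10. The flanking genes outside the cluster varied little: Lnp, next to Evx2, ranged from 614 to 1426 (1.21 log2 units), and Mtx2, beyond Hoxd3, from 2670 to 3591 (0.43 log2 units).

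**Figure D2:**
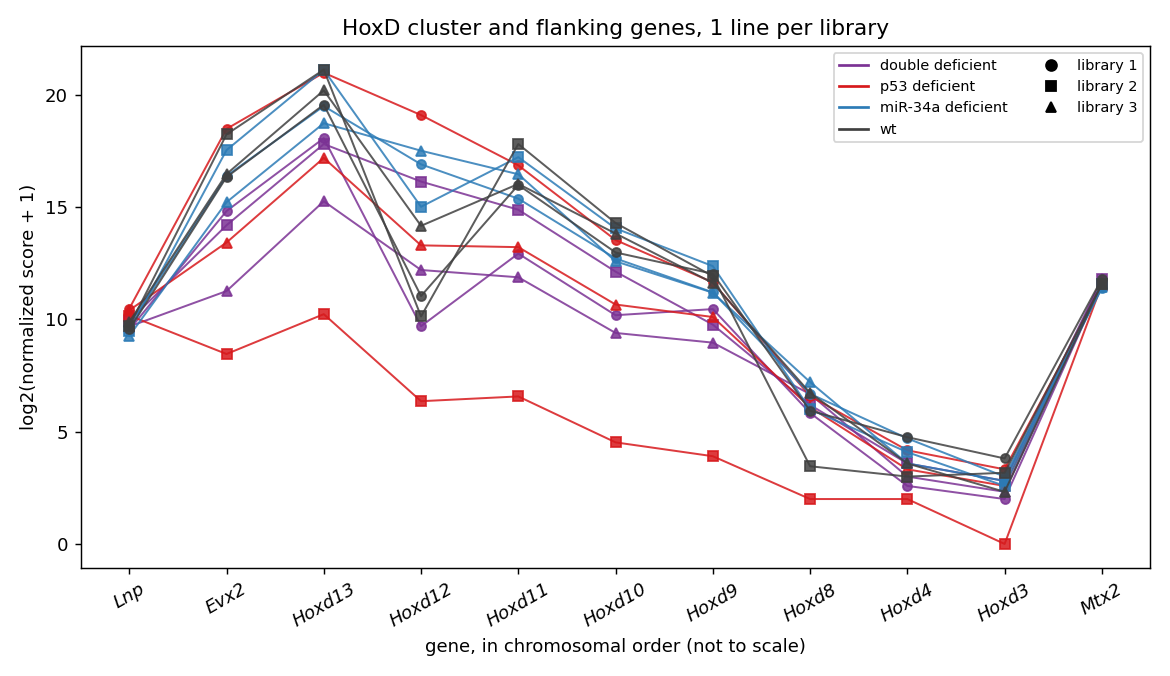
Log2(score + 1) along HoxD and its flanking genes in chromosomal order, 1 line per library, coloured by genotype and with a symbol for the library number. The lines are far apart from Evx2 to Hoxd9 and meet at Lnp and Mtx2, p53 deficient 2 is lowest from Evx2 to Hoxd3, and Hoxd12 breaks the order of the lines.

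The anterior HoxD genes were low in every tumour. Hoxd8 had a mean score of 73.4 and ranged from 3 in p53 deficient 2 to 147 in miR-34a deficient 3. Away from p53 deficient 2 it did not follow the posterior genes: it had scores of 56, 72 and 101 in double deficient and of 60, 10 and 105 in wt tumours, with 10 in wt 2, the library highest in Hoxd13. Hoxd4 averaged 12.3 with a range of 3 to 26, and Hoxd3 averaged 5.83 with a range of 0 to 13. All of them had their lowest score in p53 deficient 2, as the posterior genes did.

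Hoxd12, which lies between Hoxd13 and Hoxd11 (74675013 to 74677705), did not run with its neighbours. Its scores were 829, 72200 and 4704 in double deficient, 562097, 81 and 10065 in p53 deficient, 122763, 33120 and 186972 in miR-34a deficient, and 2108, 1122 and 18405 in wt tumours. All miR-34a deficient libraries lay above all wt libraries, and p53 deficient tumours held both its highest and its lowest score. The gap between Hoxd13 and Hoxd12 ranged from 1.23 to 10.99 log2 units, a span of 9.76, against the span of 2.87 for Hoxd11 on its other side. In wt 2, where Hoxd13 and Hoxd11 had their highest scores of all libraries, Hoxd12 was at 1122.

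The sequence just before the start site is shown for Hoxd13, Hoxd11, Hoxd10 and Hoxd9, so that what their promoters have in common can be read. The windows are the 250 bases upstream of a single RefSeq start for each gene (GRCm38.p6, plus strand), written in lower case. Capitals mark matches of 2 short motifs searched on both strands. The first is the TATA box, spelt TATAAA. The other is a word of the kind bound by caudal (Cdx) proteins, spelt TTTATG.
Hoxd13: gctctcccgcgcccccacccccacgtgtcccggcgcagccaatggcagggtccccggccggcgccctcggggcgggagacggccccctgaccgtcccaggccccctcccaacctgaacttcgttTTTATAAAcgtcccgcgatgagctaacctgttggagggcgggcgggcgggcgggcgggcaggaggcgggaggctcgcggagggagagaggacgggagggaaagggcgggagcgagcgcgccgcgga
Hoxd11: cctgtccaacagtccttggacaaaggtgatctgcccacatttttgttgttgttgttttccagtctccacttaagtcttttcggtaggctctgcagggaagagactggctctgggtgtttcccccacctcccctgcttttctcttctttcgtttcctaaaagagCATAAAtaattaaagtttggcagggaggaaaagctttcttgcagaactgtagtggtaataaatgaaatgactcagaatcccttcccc
Hoxd10: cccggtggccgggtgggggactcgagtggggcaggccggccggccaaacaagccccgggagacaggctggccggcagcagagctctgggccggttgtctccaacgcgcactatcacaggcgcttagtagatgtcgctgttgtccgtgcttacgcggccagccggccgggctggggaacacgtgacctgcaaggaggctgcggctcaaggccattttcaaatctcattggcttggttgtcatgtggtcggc
Hoxd9: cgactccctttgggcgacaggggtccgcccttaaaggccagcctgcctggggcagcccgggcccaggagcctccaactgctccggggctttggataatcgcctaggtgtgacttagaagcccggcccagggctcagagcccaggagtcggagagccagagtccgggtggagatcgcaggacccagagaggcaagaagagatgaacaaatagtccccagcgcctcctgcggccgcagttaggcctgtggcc
The Hoxd13 window (chr2:74667975-74668224) holds 31 CpG dinucleotides at 74.4% G and C, and its capitals are a TATAAA match on each strand that overlap in a single run. The Hoxd11 window (chr2:74679308-74679557) holds 2 CpG at 44.8% G and C and a single caudal-type match on the minus strand. The Hoxd10 window (chr2:74691641-74691890) has 20 CpG at 65.6% and the Hoxd9 window (chr2:74697513-74697762) has 13 CpG at 65.2%, with neither motif in these letters. The median over 32851 mouse windows of this length was 6 CpG. The 4 windows shown thus share no motif of the 2 searched, and they differ widely in CpG content. TATAAA was present in 12.4% of all windows and in 4 of 21 Hox windows, TTTATG in 10.8% and in 5 of 21. These 21 windows belong to 19 of the 28 members, and a match says nothing of binding.

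HoxA showed a smaller version of the same low library. Hoxa9, an Abdominal-B type gene (chromosome 6, 52223100 to 52231089, minus strand), had scores of 7296, 7336 and 6677 in double deficient, 6663, 1268 and 4488 in p53 deficient, 7875, 6176 and 6981 in miR-34a deficient, and 9417, 7962 and 8307 in wt tumours. Every library of the 3 deletion genotypes lay below every wt library, and p53 deficient 2 was lowest. Hoxa10, its neighbour, known from the uterus and the lumbar spine (52231197 to 52240854), had scores of 3275, 2773 and 2519 in double deficient, 2817, 730 and 1734 in p53 deficient, 2630, 2568 and 3085 in miR-34a deficient, and 3658, 3845 and 3170 in wt tumours. Here the p53 deficient and the miR-34a deficient libraries lay below wt without overlap, while double deficient 1 reached the wt range. Hoxa7 had scores of 1381, 858 and 923 in double deficient, 1394, 364 and 857 in p53 deficient, 1405, 1208 and 1193 in miR-34a deficient, and 1681, 1084 and 1550 in wt tumours. The mean log2 level of Hoxa7, Hoxa9 and Hoxa10 was lowest in p53 deficient 2, at 9.44, and next lowest in p53 deficient 3, at 10.88. The remaining libraries held 11.29 to 11.92.

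At the posterior end of HoxA the lowest library differed between genes. Hoxa13, known from hindgut, cloaca and limb (52257694 to 52260880), had scores of 1391, 892 and 625 in double deficient, 964, 367 and 908 in p53 deficient, 381, 930 and 249 in miR-34a deficient, and 729, 1181 and 1283 in wt tumours. Its lowest library was miR-34a deficient 3, with p53 deficient 2 next, and all groups overlapped. Hoxa11, a limb and uterus gene, had scores of 307, 161 and 214 in double deficient, 170, 41 and 201 in p53 deficient, 115, 169 and 199 in miR-34a deficient, and 148, 198 and 123 in wt tumours, lowest in p53 deficient 2. The long noncoding RNA Hottip, which lies beyond Hoxa13, had scores of 171, 97 and 46 in double deficient, 66, 5 and 45 in p53 deficient, 19, 84 and 9 in miR-34a deficient, and 42, 81 and 150 in wt tumours. The libraries low in Hottip were p53 deficient 2 and miR-34a deficient 3 and 1, which were also the 3 lowest for Hoxa13. The anterior HoxA genes were low throughout, among them mean scores of 18.9 for Hoxa2, 54.0 for Hoxa3, 99.6 for Hoxa5 and 4.75 for Hoxa6. Of these, Hoxa3, Hoxa5 and Hoxa6 had their lowest score in double deficient 2.

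Hoxb13, the last gene of HoxB, known from the distal colon, rectum and prostate (chromosome 11, 96194316 to 96197447, plus strand), was the steadiest of the high Hox genes outside HoxA. Its scores were 3996, 7930 and 5306 in double deficient, 10985, 18467 and 6215 in p53 deficient, 9369, 9454 and 11218 in miR-34a deficient, and 11057, 7926 and 9635 in wt tumours. The double deficient libraries lay below every miR-34a deficient library, and 1 of them lay between the wt values. In p53 deficient 2, where Hoxd13 was at 1203, Hoxb13 had its highest score of all, so that Hoxb13 stood 3.94 log2 units above Hoxd13 there. In the other 11 libraries it stood below Hoxd13, by as much as 8.17 in wt 2. Hoxb9, an Abdominal-B type gene of the thoracic skeleton (96271457 to 96276595), had scores of 583, 1883 and 933 in double deficient, 2308, 2456 and 976 in p53 deficient, 3421, 2323 and 3869 in miR-34a deficient, and 2484, 2950 and 1428 in wt tumours. It was low in double deficient 1 and 3 and in p53 deficient 3, and it was not low in p53 deficient 2.

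The middle HoxB genes were low in 2 p53 deficient libraries and in 1 wt library. A mean log2 level was taken over Hoxb3, Hoxb4, Hoxb6, Hoxb7 and Hoxb8, without Hoxb5. It was 7.13, 6.81 and 6.22 in double deficient and 6.92, 4.46 and 4.51 in p53 deficient tumours. In miR-34a deficient tumours it was 7.59, 7.09 and 7.93, and in wt tumours 7.42, 7.05 and 5.04. The low libraries were p53 deficient 2 and 3, which were also the lowest for Hoxa7, Hoxa9 and Hoxa10, and wt 3, which was among the high libraries for Hoxd13. Hoxb4, known from blood stem cells, had scores of 114, 65 and 60 in double deficient, 38, 8 and 12 in p53 deficient, 109, 88 and 134 in miR-34a deficient, and 112, 81 and 16 in wt tumours. Hoxb7 had scores of 264, 190 and 166 in double deficient, 154, 32 and 33 in p53 deficient, 264, 150 and 401 in miR-34a deficient, and 209, 140 and 54 in wt tumours. For both genes all double deficient libraries lay above all p53 deficient libraries. Hoxb6 ranged from 65 in p53 deficient 3 to 982 in p53 deficient 1, Hoxb8 from 15 to 216 and Hoxb3 from 3 to 120. Hoxb5os, an antisense transcript over Hoxb5 and Hoxb6, had scores of 852, 625 and 391 in double deficient, 660, 120 and 108 in p53 deficient, 1519, 991 and 2090 in miR-34a deficient, and 982, 1286 and 228 in wt tumours, with the same 3 lowest libraries. Whether counting used strand is not stated, so reads of Hoxb5, Hoxb6 and Hoxb5os cannot be told apart. Hoxb2 and Hoxb5 stayed at scores of at most 9 and 13.

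HoxC was represented by Hoxc13 alone, a hair follicle and nail gene (chromosome 15, 102921103 to 102928814, plus strand). Its scores were 7, 7 and 9 in double deficient, 5, 10 and 4 in p53 deficient, 2, 12 and 28 in miR-34a deficient, and 19, 11 and 20 in wt tumours. Its mean score of 11.2 was the lowest of the 12 members numbered 9 to 13. The double deficient and the p53 deficient libraries lay below wt without overlap. The other HoxC genes, and Hoxa4, Hoxb1 and Hoxd1, were not analysed here.

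**Figure D3:**
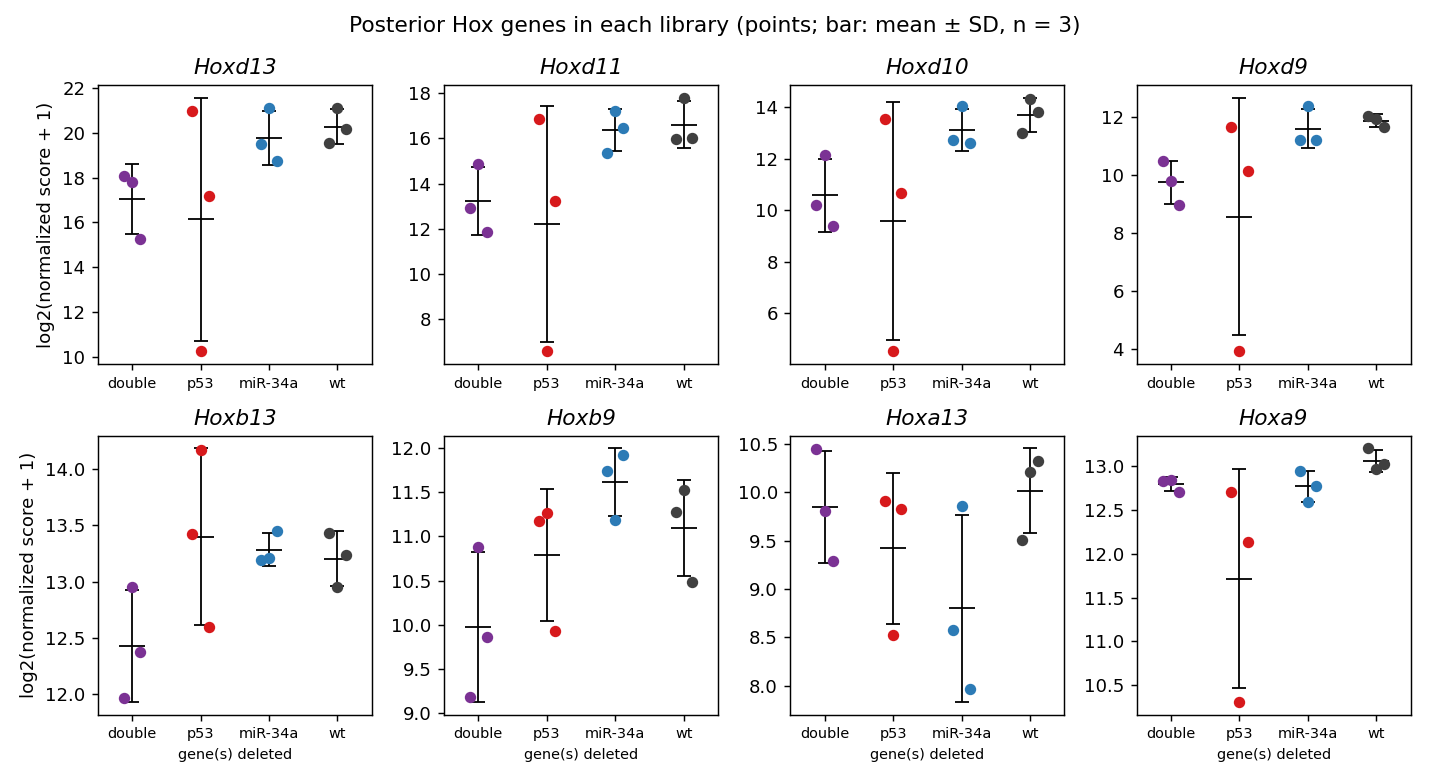
Log2(score + 1) of 8 posterior Hox genes in each library (points), with the mean and SD of the 3 libraries of a genotype (bars), double deficient at the left and wt at the right. The axes differ between panels; the p53 deficient points of the HoxD genes spread widest, and the library lowest in HoxD is the highest in Hoxb13.

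To condense the balance between the ends of the clusters, the mean log2 level of the members numbered 10 to 13 less that of the members numbered up to 9 was taken in each library. It averaged 4.97 ± 0.81 in double deficient, 4.98 ± 1.60 in p53 deficient, 5.67 ± 0.51 in miR-34a deficient and 5.88 ± 0.57 in wt tumours (SD, n = 3 each). The lowest value was 3.25 in p53 deficient 2 and the highest 6.41 in p53 deficient 1. Gene length adds a constant to this measure, so only its differences between libraries are read. The genotypes overlapped, and no test was made of it.

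The comparison of p53 deficient with wt tumours asks what loss of p53 in the epithelium does to these genes. Here Hoxd13, Hoxd11, Hoxd10 and Hoxd9 had the largest differences, with wide errors. Hoxd13 averaged 16.14 ± 5.45 in p53 deficient tumours and 20.30 ± 0.79 in wt tumours on the log2 scale (SD, n = 3 each), a log2 difference of -4.16 ± 2.0 (adjusted p = 0.351). The log2 differences of Hoxd11, Hoxd10 and Hoxd9 were -4.39 ± 1.92, -4.13 ± 1.69 and -3.31 ± 1.45, with adjusted p of 0.307, 0.282 and 0.307. Hoxa10, with a smaller but more even difference of -1.21 ± 0.36, had the lowest adjusted p of the members, 0.171. Hoxa9 stood at -1.35 ± 0.44 (adjusted p = 0.197), Hoxb4 at -1.70 ± 0.70 (adjusted p = 0.283) and Hoxb13 at 0.19 ± 0.34 (adjusted p = 0.830). Hoxd12, the most scattered member in p53 deficient tumours, stood at 1.14 ± 2.60 (adjusted p = 0.868) and turned round to -1.95 without p53 deficient 1.

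By limma 0 of the 28 Hox genes passed in p53 deficient against wt tumours, where 0.0234% of all genes tested did. At an unadjusted p under 0.05 there were 7 members, all lower in p53 deficient tumours, against 15.3% of all genes. The groups did not overlap for 4 members, all lower in p53 deficient tumours (Hoxa5, Hoxa9, Hoxa10 and Hoxc13), against 16.2% of all genes. The median log2 difference was -0.81 over the members and -0.04 over all genes tested, and 22 of the 28 members lay below 0, as did 53.6% of all genes. Without p53 deficient 2 these medians were -0.38 and -0.03, with 20 of the 28 members and 52.7% of all genes below 0. Without p53 deficient 2, Hoxd13 stood at -1.21 (adjusted p = 0.683), Hoxd10 at -1.60 (0.478) and Hoxa10 at -0.68 (0.207). Without p53 deficient 1 they stood at -6.58 (0.0929), -6.11 (0.0811) and -1.66 (0.0479), so that Hoxa10 passed in that setting.

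Double deficient tumours were set against wt to read the loss of both genes. Hoxd13 averaged 17.05 ± 1.55 in double deficient tumours and 20.30 ± 0.79 in wt tumours (SD, n = 3 each), a log2 difference of -3.25 ± 2.0 (adjusted p = 0.489). Hoxd11, Hoxd10 and Hoxd9 stood at -3.38, -3.13 and -2.13, with adjusted p of 0.450, 0.419 and 0.536. For these 4 genes the double deficient libraries lay below the wt libraries without overlap, and the SE of the fit also holds the spread of the p53 deficient libraries. With p53 deficient 2 left out of the fit the adjusted p of Hoxd10 was 0.0983 and that of Hoxd13 was 0.155. Hoxb9 stood at -1.12 ± 0.46 (adjusted p = 0.278), Hoxb13 at -0.78 ± 0.34 (0.313) and Hoxb2, a hindbrain gene with scores of at most 9, at 1.43 ± 0.50 (0.205).

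Again 0 of 28 members passed by limma in double deficient against wt tumours, where 0.802% of all genes did. At an unadjusted p under 0.05 there were 3 members, 1 higher and 2 lower, against 15.3% of all genes. The groups did not overlap for 7 members, against 19.8% of all genes: Hoxa9, Hoxc13, Hoxd9, Hoxd10, Hoxd11 and Hoxd13 lay lower in double deficient tumours and Hoxb2 higher. The median log2 difference was -0.45 over the members and 0.02 over all genes tested.

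In miR-34a deficient against wt tumours 14 Hox genes lay above wt and 14 below, with no common direction. Hoxd13 averaged 19.78 ± 1.21 in miR-34a deficient tumours and 20.30 ± 0.79 in wt tumours, a log2 difference of -0.51 ± 2.0 (adjusted p = 0.989). Hoxd12 had the largest difference of any member in this comparison, 4.70 ± 2.60 (adjusted p = 0.897), and Hoxa13 stood at -1.21 ± 0.51 (adjusted p = 0.778). Of the 28 members 0 passed by limma (0.0375% of all genes), and 2 had an unadjusted p under 0.05, 1 in each direction (6.09% of all genes). The groups did not overlap for 3 members (10.1% of all genes), with Hoxd12 higher and Hoxa9 and Hoxa10 lower in miR-34a deficient tumours. The median log2 difference was -0.06 over the members and 0.03 over all genes.

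**Figure D4:**
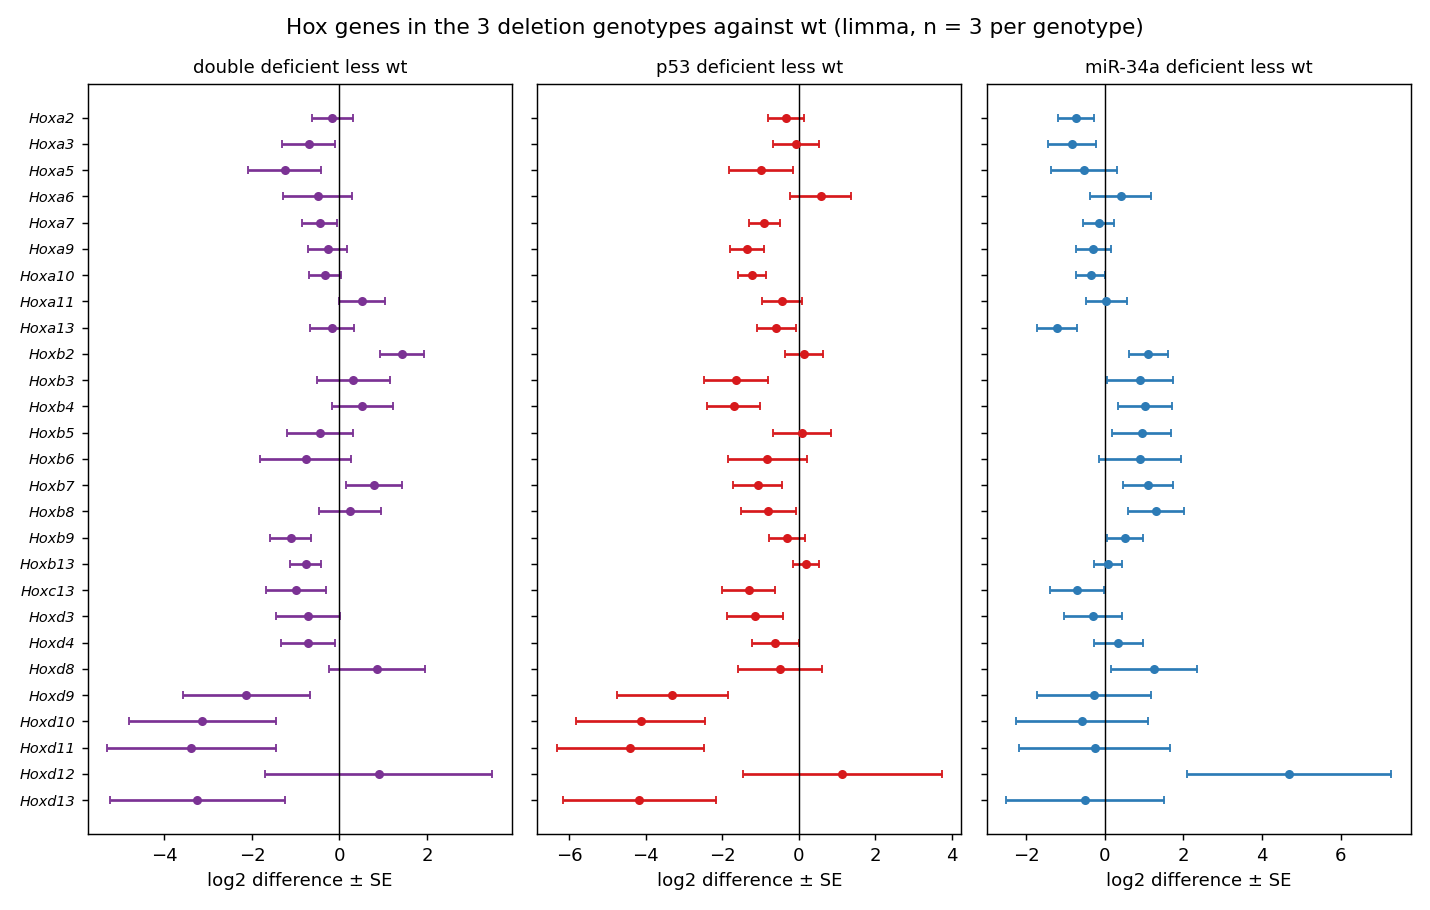
Log2 difference ± SE (limma, n = 3 libraries per genotype) of Hox genes in double deficient, p53 deficient and miR-34a deficient tumours against the same wt tumours; the 3 panels share their wt libraries and have axes of their own. Hoxd9, Hoxd10, Hoxd11 and Hoxd13 lie furthest to the left in the first 2 panels with wide error bars, and no gene shown passed the test.

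Double deficient tumours were then set against each single deletion. Against p53 deficient tumours Hoxb4 stood at a log2 difference of 2.22 ± 0.70 (adjusted p = 0.173) and Hoxb7 at 1.87 ± 0.64 (0.209), while their neighbours Hoxb5 and Hoxb6 stood at -0.53 ± 0.76 (0.778) and 0.05 ± 1.04 (0.990). Hoxa9 stood at 1.08 ± 0.44 (0.280) and Hoxb13 at -0.97 ± 0.34 (0.217), whereas Hoxd13 stood at 0.91 ± 2.0 (0.866). By limma 0 of 28 members passed (0.605% of all genes), 7 had an unadjusted p under 0.05 (15.1% of all genes), and 4 did not overlap, all higher in double deficient tumours (19.6% of all genes). The 4 were Hoxa9, Hoxb2, Hoxb4 and Hoxb7. Between these groups the level of 4 Y-linked genes also stood apart, with a mean log2 of 0.25 to 0.79 in double deficient and 3.73 to 6.98 in p53 deficient libraries. With that level as a covariate Hoxb4 stood at 0.99 and Hoxb7 at 0.85 (adjusted p = 0.833 and 0.852). The Y-linked level was uneven in other comparisons too. It was 0, 2.84 and 4.35 in wt libraries and 0, 2.77 and 5.28 in miR-34a deficient libraries. Double deficient against wt or miR-34a deficient tumours, and p53 deficient against wt tumours, thus also differed in it.

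In double deficient against miR-34a deficient tumours Hoxb9 stood at a log2 difference of -1.63 ± 0.46, with the lowest adjusted p of any member in any of the 6 comparisons, 0.107. Hoxb13 stood at -0.85 ± 0.34 (0.221) and Hoxd13 at -2.74 ± 2.0 (0.503). Of 28 members 0 passed by limma (0.905% of all genes) and 2 had an unadjusted p under 0.05, both lower in double deficient tumours (18% of all genes). The groups did not overlap for 7 members, all lower in double deficient tumours (27.3% of all genes): Hoxb6, Hoxb9, Hoxb13, Hoxd9, Hoxd10, Hoxd11 and Hoxd13. The median log2 difference was -0.54 over the members and -0.06 over all genes.

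The interaction asks whether the effect of both deletions differs from the sum of the single ones. For Hoxa10 it was 1.26 ± 0.52 (adjusted p = 0.587) and for Hoxa13 1.64 ± 0.72 (adjusted p = 0.616). By limma 0 of 28 members passed (0.0234% of all genes), and these 2 had an unadjusted p under 0.05 (7.89% of all genes).

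Genes that act with or upon the Hox genes gave little difference between genotypes. Cdx1, a caudal factor of the colon epithelium, had scores of 2888, 7599 and 5312 in double deficient, 7232, 11797 and 9834 in p53 deficient, 6255, 8330 and 3582 in miR-34a deficient, and 10443, 3854 and 7737 in wt tumours, and it was highest in p53 deficient 2, where HoxD was lowest. Gata4, a small intestine factor, stayed at scores of 6 to 17. No member passed in any comparison among 11 TALE genes, 3 ParaHox and caudal genes, 19 Polycomb genes, 11 trithorax and demethylase genes, 13 retinoic acid genes, 10 long noncoding RNAs of the clusters and 18 genes beside the clusters. The lowest adjusted p in these lists was 0.0638, among the trithorax genes. Of 28 genes used to tell regions of the intestine apart, 2 passed in double deficient tumours against wt, where 0.802% of all genes did. These were the water channel gene Aqp8 and the goblet cell gene Retnlb. They fell, with log2 differences of -6.54 ± 0.84 (adjusted p = 0.00589) and -7.86 ± 0.96 (0.00394), and they also passed against both single deletions. Over the 28 genes the median log2 difference was -0.02 against wt, -0.48 against p53 deficient and -0.27 against miR-34a deficient tumours.

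Markers of the tissue were read beside these results. The mean log2 level of 17 epithelial genes was 14.19 to 14.50 in double deficient, 14.69 to 14.99 in p53 deficient, 14.48 to 14.69 in miR-34a deficient and 14.62 to 15.01 in wt libraries, with none at 0. In p53 deficient 2 it was 14.88, within the wt range. Of these 17 only Spint1, a protease inhibitor of epithelia, passed in any comparison, and it was lower in double deficient than in wt tumours (adjusted p = 0.0468) and than in miR-34a deficient tumours (0.0494). That of 17 fibroblast genes was 8.48 to 9.51, 8.14 to 9.03, 9.26 to 9.93 and 8.88 to 9.53 in the same order, with p53 deficient 2 at 8.85 and none at 0. That of 13 leukocyte genes was 6.07 to 6.62, 4.94 to 6.42, 5.93 to 6.56 and 5.38 to 6.25, and p53 deficient 2 was lowest. In that library 2 of the 14 leukocyte genes measured, tested or not, were at 0. The mean log2 level of 9 Paneth and small intestine genes was also lowest in p53 deficient 2, at 7.61, against 8.34 to 11.10 in the other libraries. Of these genes only Gsta1, a glutathione transferase, passed between double deficient and p53 deficient tumours, and it was lower in double deficient tumours (adjusted p = 0.00360). The list as a whole went the other way there, with a median log2 difference of 0.98 over the 9 genes. The mean log2 level of 13 squamous epithelium genes was 12.25 in miR-34a deficient 3, against 9.10 to 11.24 in the other libraries, with none at 0. That library was also lowest in Hoxa13 and highest in the mean of Hoxb3, Hoxb4, Hoxb6, Hoxb7 and Hoxb8. The mean of 14 endothelial genes was 7.80 to 8.51 in double deficient, 6.81 to 7.47 in p53 deficient, 7.69 to 8.07 in miR-34a deficient and 6.47 to 7.39 in wt libraries, with none at 0, so that every double deficient and every miR-34a deficient library lay above every wt library. Cdh5 and Flt1 rose in double deficient tumours against wt. At an unadjusted p under 0.05 there were 11 of the 14 in double deficient and 11 of the 14 in miR-34a deficient against wt tumours. The part of these differences in the Hox values was not tested.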

How the data were processed

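The authors deposited scores, that is, expression normalized per gene symbol and then rounded to integers. The submitters' processing notes name mm10. The aligner, the counting and the normalization were not given in the sources used here. In the deposited scores 1 direction of variation within genotypes is nearly absent (eighth singular value 0.179, seventh 32.2), so spread may be understated. An alternative took this direction as a covariate.

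Scores were taken as log2(score + 1). Genes with a mean of 1 or more (21322) entered limma 3.58.1 (R 4.3.3) with a trended prior, 1 mean per genotype, 12 libraries and 8 residual degrees of freedom, and p-values were adjusted by Benjamini-Hochberg over all of them. The procedure was tested on simulated data. No label says that libraries come from separate animals, so the p-values speak only of the spread among these libraries, part of which may be technical. However, 4 Y-linked genes averaged 0 on the log2 scale in wt 1 and miR-34a deficient 1, against 2.77 to 5.28 in the remaining libraries of these 2 genotypes, so neither set stems from a single animal. The members, the gene lists and the tests were chosen with earlier results of these data known. Values per library are printed for the 2 highest members of each cluster, the members numbered 10 to 13 with a mean of at least 100, and the 5 with the smallest p. Positions are from GENCODE M21 (GRCm38) and promoters from RefSeq (GRCm38.p6). Motif searches and figures used Python 3.11.15. Results of some genes are not reported here.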

Additional observations from a re-analysis of the deposited data

How the results depend on the processing

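Scores without counts give no depth, so how far counting error limits the low genes is unknown. Over 25 differences of single Hox genes, 567 of 571 alternative values kept direction and side of the threshold. The 25 had an unadjusted p under 0.05, or were those of Hoxd9 to Hoxd13 in p53 deficient or double deficient against wt tumours. None had passed in the full fit, so keeping the side only meant that a gene still did not pass. The size of a difference was not judged in this count. The exceptions among the alternative values were of Hoxa10 and Hoxd12. Hoxa10 passed in p53 deficient against wt tumours without p53 deficient 1 (log2 difference -1.66, adjusted p = 0.0479). Hoxd12 turned round in that comparison without p53 deficient 1 (-1.95). It did so too without the 2 libraries of another code in the library names, p53 deficient 1 and miR-34a deficient 1 (-1.95). In double deficient against wt tumours Hoxd12 turned round without double deficient 2 (-0.83). Leaving out single libraries moved Hoxd12 between -1.95 and 4.42 in p53 deficient against wt and between -0.83 and 2.39 in double deficient against wt tumours. The count of Hox genes passing was 0 under every alternative, except 0 to 1 in p53 deficient against wt tumours when single libraries were left out.

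Counts over all genes, the background of the Hox counts, moved more. For p53 deficient against wt (5 genes) they were 3 with a pseudocount of 10, 2 without a filter, 8 without the 2 libraries of the other code, 1 with the Y-linked level as covariate, 2 with the absent direction as covariate and 1 with only the groups compared in the fit. For double deficient against wt (171) they were 80 with the Y-linked level, 57 with the absent direction, 74 without the 2 libraries and 102 with only these groups. For double deficient against p53 deficient (129) they were 57 without a trend, 7 with the Y-linked level, 47 with the absent direction and 12 with only these groups. For double deficient against miR-34a deficient (193) they were 73, 57 and 79 with the Y-linked level, the absent direction and without the 2 libraries. For miR-34a deficient against wt (8) they were 5 each with quantile normalization, without a trend, with the Y-linked level and with the absent direction. For the interaction (5) they were 1 with the Y-linked level and 2 with the absent direction. Leaving out single libraries gave 1 to 88, 29 to 261, 27 to 294, 23 to 246, 4 to 12 and 2 to 10 genes in the same order of comparisons. The extremes furthest from the full counts came without p53 deficient 1 (88 in the first and 294 in the third), without p53 deficient 2 (261 in the second) and without double deficient 3 (29, 27 and 23 in the second, the third and the fourth). Same-numbered libraries were not treated as pairs, since 7 of 18 such pairs deviated together with a correlation above 0.1. The correlations ran from -0.21 to 0.50, the highest between double deficient 3 and p53 deficient 3. That between double deficient 3 and miR-34a deficient 3 was 0.39. With the replicate number as a block the counts were 2 for p53 deficient against wt, 102 for double deficient against wt and 3 for the interaction, and no Hox gene passed.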
